A study of Mus musculus with 14 samples.

Results

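The size of the transcriptional response to CpG was compared between 2 independent experiments on mouse bone-marrow-derived dendritic cells. CpG DNA is an unmethylated oligonucleotide that myeloid cells sense as a sign of microbial DNA. Of the 14 arrays in the study, 8 were used: the arrays of cells given CpG and the arrays of their unstimulated partners, 4 from experiment 1 and 4 from experiment 2. The arrays were chosen by their labels, with biological replicate 1 read as experiment 1 and biological replicate 2 as experiment 2. Within an experiment, the unstimulated array of the same pre-treatment was subtracted from the CpG array, which gave 2 responses per experiment, one from cultures pre-treated with CLIK148 and one from cultures pre-treated with its solvent DMSO.

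All cultures were grown from BALB/c marrow progenitors for 8 days in recombinant granulocyte-macrophage colony-stimulating factor, with feeding on days 3 and 6. The CLIK148 cultures received 5 µM of this cathepsin L inhibitor for 1 h, and the DMSO cultures received the same volume of solvent, at 0.01%. CpG was then added at 25 µg/mL, or nothing was added; no source used here states the time between stimulus and harvest, the age or number of the mice, or the dates of the experiments. The other arrays held cells given CA074Me, an inhibitor of cathepsin B, with or without tumour necrosis factor (TNF, 500 U/mL), and DMSO-treated cells given TNF.

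Values are log2 expression summaries, so a response of 1 log2 is a doubling, and pairs of values given for an experiment are those of its CLIK148 and its DMSO cultures. Each experiment was carried out once, so the tests set the distance between the experiments against the spread between the responses of the CLIK148 and DMSO cultures inside them, and they speak of these experiments only. Experiment and anything handled with it, array processing included, cannot be told apart. In bulk RNA, fewer cells of a type and less RNA per cell cannot be told apart either.

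CpG DNA is sensed inside endosomes by Toll-like receptor 9 (TLR9), which signals through the adaptor MyD88. One branch of the pathway activates NF-κB, which switches on inflammatory cytokines and its own inhibitors. Another acts through interferon regulatory factors to induce type I interferon, which is secreted, binds its receptor on the same and neighbouring cells, and induces a large group of antiviral genes. Dendritic cells given such a stimulus also mature: they raise co-stimulatory molecules and the lymph-node homing receptor Ccr7 and slow the uptake and processing of new antigen.

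The processing equalises the distributions, so the medians of 7.48 to 7.54 log2 over the 14 arrays do not measure how alike the arrays were. Bacterial spike-in probe sets differed on 1 of them: the BioB mean was 9.84 on the experiment 1 array of unstimulated DMSO cells and 7.84 to 8.01 on the other 13 arrays. Defining markers of the cells were above the median on all 8 arrays. Itgax, which encodes the integrin CD11c, lay at 10.91 to 12.08, the dendritic cell transcription factor Zbtb46 at 10.14 to 10.47, and the class II antigen-presenting chain H2-Ab1 at 14.43 to 14.78. Flt3, a growth factor receptor of dendritic cell progenitors, lay at 8.25 to 8.61. Macrophage genes were above it too: the lysozyme Lyz2 lay at 14.83 to 15.37 and the receptor for colony-stimulating factor 1, Csf1r, at 14.05 to 14.75. Of the lymphocyte and plasmacytoid list, Siglech stayed at 7.68 to 7.87 and Cd8a at 7.41 to 7.70, near the median of all values, while Tcf4 lay at 10.98 to 11.95. The granulocyte genes Lcn2 and Mmp8 lay at 13.33 to 14.14 and 12.36 to 13.09. Cpa3, a mast cell and basophil gene, lay at 10.31 to 11.08. Several but not all markers of dendritic cells and macrophages were therefore detected, and so were some genes of the granulocyte and mast cell lists.

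The CpG response was larger in experiment 1. Over the 12172 genes tested, the standard deviation of the mean response was 0.517 log2 in experiment 1 and 0.254 in experiment 2, a ratio of 2.03. The ratio was 1.89 for the CLIK148 responses (0.495 against 0.262) and 2.05 for the DMSO responses (0.547 against 0.267). In experiment 1 the DMSO response, which uses the array with the high BioB signal, was wider than the CLIK148 response, which does not (0.547 against 0.495). The part of that array in the width was not tested. The plot of the middle of each distribution shows the same order for both pre-treatments. Within experiment 1 the responses of the CLIK148 and DMSO cultures correlated across genes with r = 0.970, within experiment 2 with r = 0.856, and between experiments with r from 0.667 to 0.734; genes are not independent replicates, and these are descriptions.

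**Figure D1:**
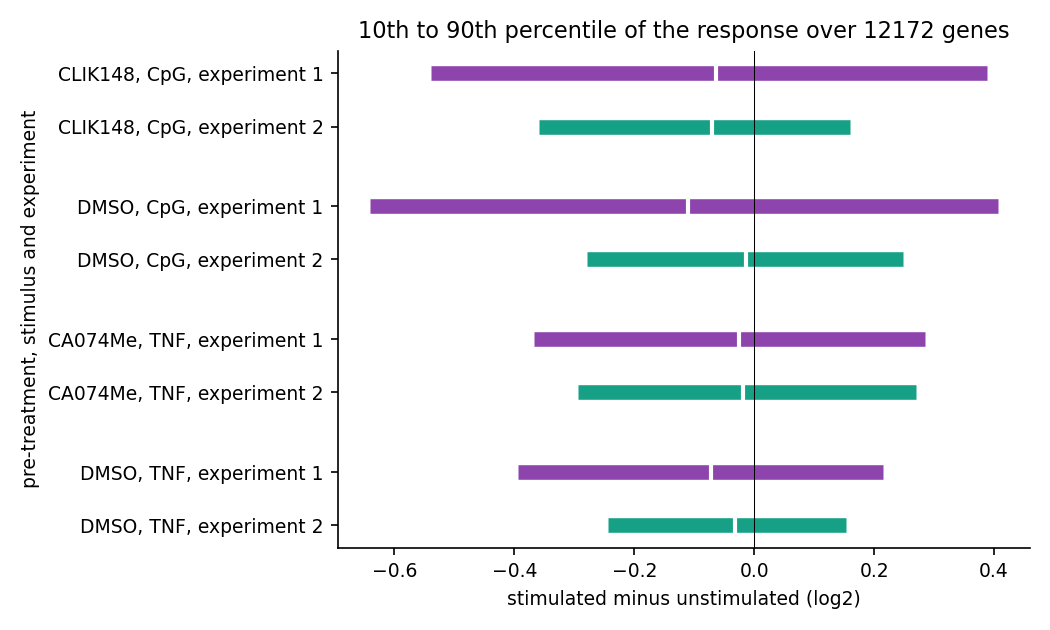
Range from the 10th to the 90th percentile of the stimulated minus unstimulated difference over 12172 genes (horizontal axis, log2), with the median as a white tick, for each pre-treatment, stimulus and experiment (vertical axis; experiment 1 purple, experiment 2 green). For CpG the bars of experiment 1 run from -0.54 to 0.39 (CLIK148) and from -0.64 to 0.41 (DMSO), and those of experiment 2 from -0.36 to 0.16 and from -0.28 to 0.25.

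In the limma fit, 7044 genes responded to CpG in experiment 1, 57.9% of those tested, with 2153 higher (17.7%) and 4891 lower (40.2%). In experiment 2, 3314 genes responded (27.2%), with 1053 higher (8.65%) and 2261 lower (18.6%). Genes that moved by at least 1 log2 numbered 392 higher and 306 lower in experiment 1, against 53 higher and 44 lower in experiment 2. The difference between the 2 responses was itself called for 3495 genes, 28.7% of those tested: 1372 positive (11.3%), meaning a response further up in experiment 1, and 2123 negative (17.4%). Both responses of experiment 1 lay above both of experiment 2 for 24.8% of genes and below them for 40.4%. Among the called genes the absolute response was larger in experiment 1 for 3207 genes and larger in experiment 2 for 288. With another scaling of the arrays, cyclic loess, the calls were 1943 positive and 1791 negative, so the balance between signs depended on the scaling. Without either of the experiment 1 DMSO arrays, CpG or unstimulated, 1938 differences were called, 974 positive and 964 negative. The CLIK148 response was then the sole one of experiment 1.

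The direction of the response was mostly shared. Of the genes called in both experiments, 2775 had the same sign (835 higher, 1940 lower) and 125 had opposite signs. Among the 2775, the response of experiment 2 was a median 0.607 of that of experiment 1, with quartiles of 0.441 and 0.856, and this ratio was 0.568 for genes that rose and 0.618 for genes that fell. The difference between the experiments was called for 1262 of them, 1212 larger in experiment 1 and 50 larger in experiment 2. The ratio was not the same for all strong responders. In the 85 genes with at least 1 log2 of the same sign in both experiments it lay between 0.265 and 1.44, with a median of 0.711. The 94 genes that rose by over 2 log2 in experiment 1 had medians of 2.52 log2 there and 0.75 log2 in experiment 2; these genes were picked by the experiment 1 value, which favours that experiment. Picked the other way, the 53 genes that rose by over 1 log2 in experiment 2 had medians of 2.05 log2 in experiment 1 and 1.18 log2 in experiment 2.

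**Figure D2:**
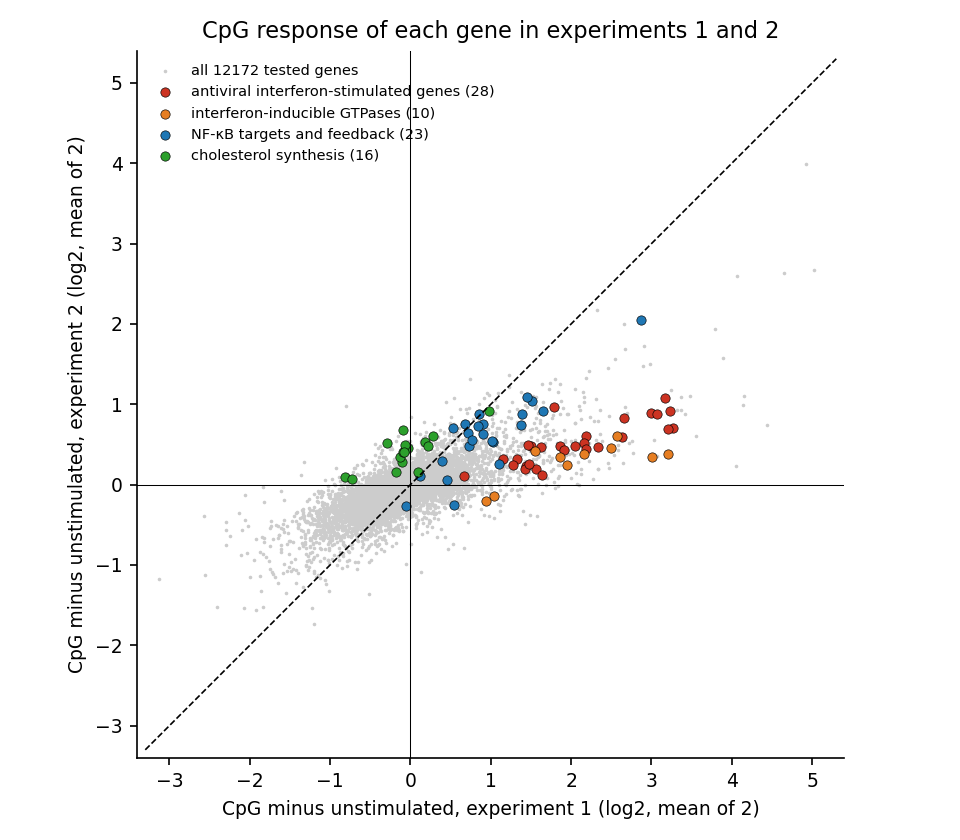
Mean CpG response of each of 12172 genes in experiment 1 (horizontal axis) and experiment 2 (vertical axis), both in log2, with the line of equal responses dashed. The 28 antiviral (red) and 10 GTPase (orange) genes lie far below the line, the 23 NF-κB genes (blue) lie near or below it, and most of the 16 cholesterol synthesis genes (green) lie above it.

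At the receptor itself no difference was called. Tlr9 itself lay at 7.78 and 7.70 with CpG and 7.62 and 7.72 without in experiment 1, against 7.62 and 7.73 with CpG and 7.67 and 7.66 without in experiment 2. All 8 values were near the median of the array, and the difference between responses was 0.06 (95% interval -0.15 to 0.27, adjusted p = 0.689). Unc93b1, which carries TLR9 to endosomes, responded by 0.17 ± 0.08 in experiment 1 and 0.20 ± 0.18 in experiment 2 (SD, n = 2 responses), with neither response called. Of 17 genes of the CpG receptor and MyD88 pathway, 4 had a larger rise and 1 a larger fall in experiment 1 (against 28.7% of all genes called in either direction).

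The 4 with the larger rise were Irf7, Irak3, Myd88 and Irak2. Irf7, the transcription factor that drives interferon-alpha genes, rose by 2.38 in both cultures of experiment 1 and by 0.54 in both cultures of experiment 2, a difference of 1.84 (SE 0.08, adjusted p = 3.68e-07). Its unstimulated level was 9.46 and 9.54 in experiment 1 and 9.48 and 9.33 in experiment 2, so the distance lay in the stimulated cells, at 11.84 and 11.92 against 10.02 and 9.88. Myd88 rose by 0.89 and 0.85 in experiment 1, while its responses in experiment 2 were -0.08 and 0.15. Irak3, a brake on Toll-like receptor signalling, rose by 0.98 and 0.96 against 0.17 and 0.50. No response of these 4 genes in experiment 2 reached either response of the same gene in experiment 1. That held for all 3495 genes with a called difference, so it adds nothing to the calls.

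The antiviral interferon-stimulated genes differed in every tested member. All 28 tested genes of the list rose in experiment 1 and 26 rose in experiment 2 (against 17.7% and 8.65% of all genes). For all 28 the difference was called positive, against 11.3% of all genes. Their median response was 1.88 log2 in experiment 1 and 0.48 log2 in experiment 2, beside -0.08 and -0.04 for all genes tested. The differences ranged from 0.56 for Ifitm3, a membrane protein that blocks viral entry, to 2.57 for Cmpk2, a mitochondrial nucleotide kinase. Of the 30 listed symbols, Rigi is another name of Ddx58, which was tested, and Ifi44 was not analysed here.

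Ifit3, which binds viral RNA with its relatives, stood at 12.97 and 13.15 with CpG and 9.79 and 9.91 without in experiment 1. In experiment 2 it stood at 9.88 and 9.70 with CpG and 9.18 and 9.03 without. The CpG level of experiment 2 thus only matched the unstimulated level of experiment 1. The mean responses were 3.21 ± 0.04 and 0.69 ± 0.03 log2 (SD, n = 2 responses each), or 9.24-fold in experiment 1 and 1.61-fold in experiment 2, and the difference was 2.52 (SE 0.08, adjusted p = 1.08e-07). Cmpk2 rose by 3.27 and 3.28 in experiment 1 and by 0.64 and 0.77 in experiment 2. Ifit2 rose by 3.24 and 3.23 against 0.91 and 0.92, and Ifit1 by 3.16 and 3.18 against 1.03 and 1.13. Rsad2, the antiviral enzyme viperin, reached 14.72 and 15.00 with CpG in experiment 1 and 12.22 and 11.99 in experiment 2. In each of these genes the cultures of one experiment lay close together. The responses of the experiments did not overlap, as in every gene with a called difference.

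The interferon-inducible GTPases, which attack the vacuoles of intracellular microbes, followed the same order. All 10 tested members rose in experiment 1 and 8 rose in experiment 2 (against 17.7% and 8.65% of all genes). The list medians were 2.05 and 0.37 log2, and all 10 differences were called positive, against 11.3% of all genes. Iigp1 rose by 3.18 and 3.23 in experiment 1 and by 0.49 and 0.28 in experiment 2, and Gbp6 by 2.95 and 3.06 against 0.30 and 0.38. Ifi47 rose by 2.44 and 2.56 against 0.53 and 0.38. The 2 members without a called rise in experiment 2 were Gbp7 and Gbp8, at -0.15 and -0.21 log2 there. Isg20, an interferon-induced exonuclease, and Ifit1bl1, a relative of Ifit1, were on neither list but were among the 10 largest positive differences, at 2.95 and 3.06.

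Genes of interferon production and signalling differed as well. Ifnb1, which encodes interferon-beta, stood at 8.07 and 8.13 with CpG and 7.44 and 7.49 without in experiment 1, against 7.60 and 7.58 with CpG and 7.44 and 7.57 without in experiment 2. The responses of 0.63 and 0.64 in experiment 1 lay above those of 0.16 and 0.01 in experiment 2, and the difference was 0.55 (SE 0.09, adjusted p = 0.00145). The levels of Ifnb1 are close to the median of the array, where log2 values of this method are compressed. Of 13 factors of interferon signalling, 10 had a called positive difference (against 11.3% of all genes) and none a negative one (17.4%). Stat2, a component of the interferon-activated transcription complex, rose by 1.54 and 1.48 in experiment 1, against 0.10 and 0.28 in experiment 2. Usp18, a brake on the interferon receptor, rose by 1.94 and 2.15 against 0.77 and 0.77. The receptor chains Ifnar1 and Ifnar2 and the kinase Tyk2 had no called difference.

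Promoter stretches of 4 genes that rose more in experiment 1 (2 antiviral genes, the chemokine gene Cxcl10 and the interferon signalling gene Stat2) are shown because they hold a core of the sequence known to bind the interferon-activated transcription complex. The core searched was GAAA, any 2 bases, then GAAA. It was looked for on both strands in RefSeq windows of 250 bases before to 50 after each start (GRCm38.p6) and was held by 17 of 26 antiviral and GTPase genes with a window, or 65.4%. Capitals mark the core, which reads TTTC, any 2 bases, then TTTC where it lies on the other strand.
Ifit1, chr19:34640760-34640819, plus strand: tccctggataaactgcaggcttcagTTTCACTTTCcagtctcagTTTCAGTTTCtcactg
Ifit3, chr19:34583348-34583407, plus strand: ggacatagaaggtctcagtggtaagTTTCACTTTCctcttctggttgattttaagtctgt
Cxcl10, chr5:92349068-92349127, minus strand: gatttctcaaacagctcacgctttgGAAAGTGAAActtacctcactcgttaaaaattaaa
Stat2, chr10:128270251-128270310, plus strand: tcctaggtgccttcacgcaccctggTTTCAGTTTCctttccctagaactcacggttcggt
Over all 9835 tested genes with a window, 3.72% held the core. Among the 1043 genes with a larger rise in experiment 1 it was 8.53%, and among the 190 of these with a difference of at least 1 log2 it was 18.4%. Among the 317 genes that rose in both experiments with no called difference it was 4.42%, and among the 1736 with a larger fall in experiment 1 it was 2.07%. A match is a description of these letters in this window and not a site shown to be used.

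NF-κB targets had a median difference of 0.27 log2. Of 23 tested genes of the list, 21 rose in experiment 1 and 19 in experiment 2 (against 17.7% and 8.65% of all genes). The list medians were 0.85 and 0.64 log2, and the difference was called positive for 11 (against 11.3% of all genes) and negative for none (17.4%). Relb, a subunit of NF-κB, stood at 11.94 and 12.06 with CpG and 11.11 and 11.19 without in experiment 1, against 11.72 and 11.95 with CpG and 10.96 and 10.95 without in experiment 2. Its responses were 0.85 ± 0.03 and 0.88 ± 0.17 (SD, n = 2 each) and overlapped, with a difference of -0.03 (95% interval -0.25 to 0.20, adjusted p = 0.880). Tnfaip2 gave 0.68 ± 0.10 and 0.76 ± 0.03, and the inhibitor gene Nfkbia gave 0.40 ± 0.09 and 0.30 ± 0.01, with adjusted p-values of 0.577 and 0.452 for the difference. Nfkbiz, an inducible co-factor needed for Il6 and Il12b transcription, rose by 2.80 and 2.93 in experiment 1 and by 2.00 and 2.10 in experiment 2, a called difference of 0.82. The largest difference of the list was 0.85 for Sod2, a mitochondrial superoxide dismutase.

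A form of the NF-κB binding sequence, GGGA, any 1 base, then TTTCC, was searched on both strands of the same windows. It was held by 2 of the 21 NF-κB list genes with a window (9.52%) and by 0.569% of all tested genes with one. Among the genes with a larger rise in experiment 1 it was 0.959%. Of the 190 of these with a difference of at least 1 log2, 6 held it (3.16%). Among those that rose in both experiments with no called difference it was 1.26%. Il6 and Cxcl1, which both rose more in experiment 1, held it, with the core in capitals.
Il6, chr5:30013045-30013104, plus strand: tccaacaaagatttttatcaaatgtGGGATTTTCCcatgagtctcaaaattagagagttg
Cxcl1, chr5:90891149-90891208, plus strand: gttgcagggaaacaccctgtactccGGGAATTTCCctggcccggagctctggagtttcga

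**Figure D3:**
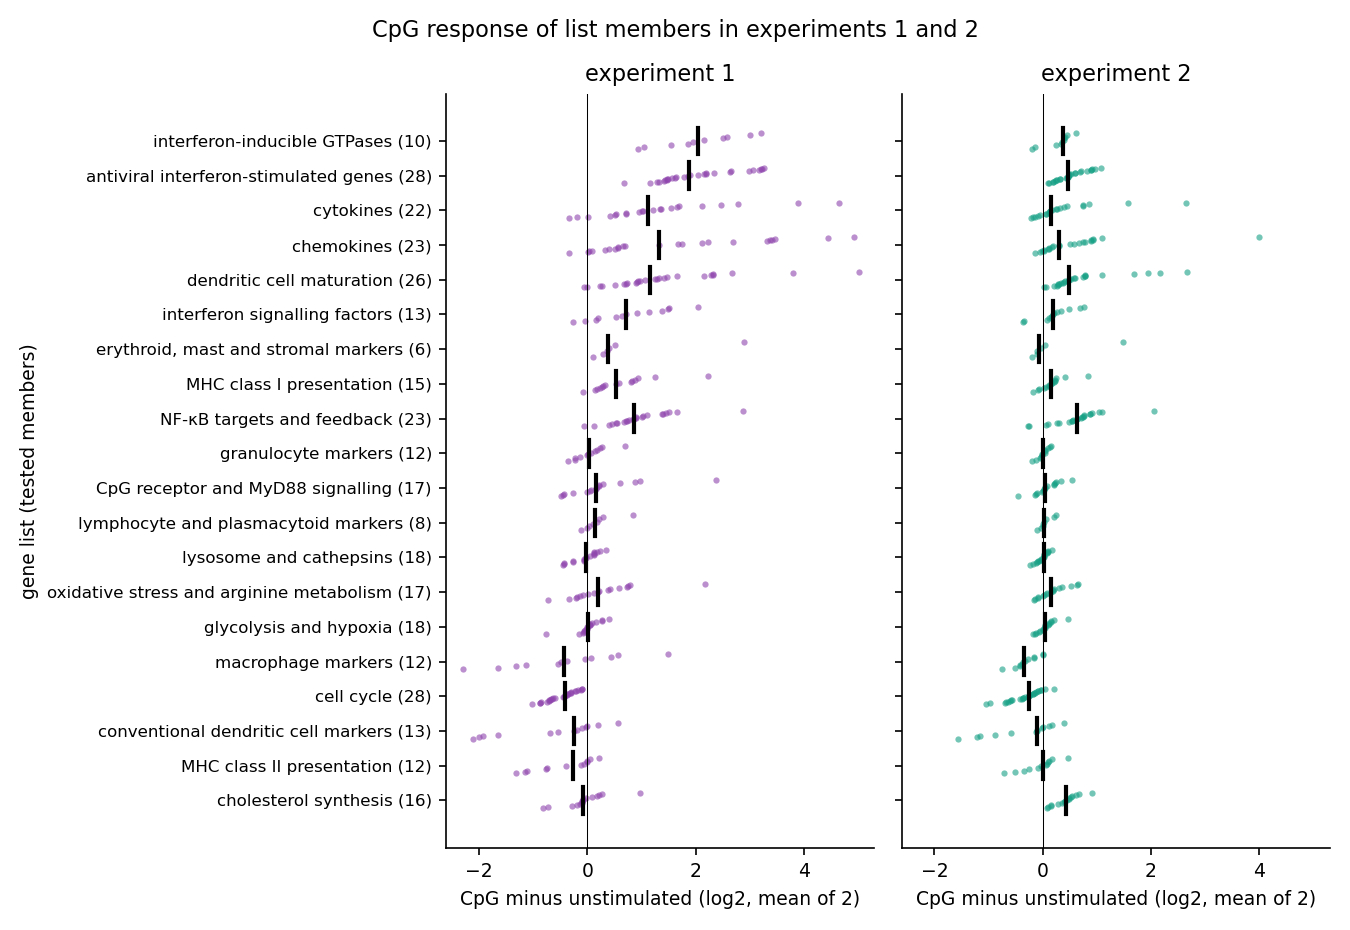
Mean CpG response (horizontal axis, log2) of each tested member of 20 gene lists (rows, with the number of members), in experiment 1 (left, purple) and experiment 2 (right, green); black ticks are list medians. The antiviral medians are 1.88 in experiment 1 and 0.48 in experiment 2, the NF-κB medians 0.85 and 0.64, and the cholesterol synthesis medians -0.09 and 0.43.

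Cytokines differed in both their stimulated and unstimulated levels. Of 22 tested genes, 19 rose in experiment 1 and 9 in experiment 2 (against 17.7% and 8.65% of all genes). Of the differences, 18 were called positive (against 11.3% of all genes) and none negative (17.4%). Il6 reached 13.85 and 14.15 with CpG in experiment 1 and 12.65 and 12.78 in experiment 2, while without stimulus it stood at 10.06 and 10.17 against 11.13 and 11.14. Experiment 1 was therefore the higher one with CpG and the lower one without it. The mean rises were 3.88 ± 0.15 and 1.58 ± 0.09 (SD, n = 2 each), or 14.8-fold and 2.99-fold, and the difference was 2.30 (SE 0.10, adjusted p = 3.14e-07). Il12b, a chain of interleukins 12 and 23, rose by 4.51 and 4.79 against 2.64 and 2.64, or 25.1-fold and 6.22-fold, with unstimulated levels of 10.03 and 9.82 against 10.98 and 11.11. Tnf differed the other way without stimulus: it stood at 10.67 and 10.70 in experiment 1 and 9.87 and 9.77 in experiment 2, and still rose more in experiment 1, by 2.32 and 2.62 against 0.70 and 1.01. Il15 and Il18 rose by 1.21 and 1.37 in experiment 1, while in experiment 2 their responses of 0.06 and -0.06 were not called.

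Of 23 chemokines, 15 had a called positive difference (against 11.3% of all genes) and none a negative one (17.4%). Cxcl11, a ligand of Cxcr3 on activated T cells, stood at 13.84 and 14.24 with CpG and 9.52 and 9.68 without in experiment 1. In experiment 2 it stood at 9.84 and 9.51 with CpG and 9.02 and 8.86 without. The rise was 21.7-fold in experiment 1 and 1.67-fold in experiment 2, and the difference of 3.70 (SE 0.11, adjusted p = 6.94e-08) was the second largest of all genes. Cxcl10, a ligand of the same receptor, rose by 3.25 and 3.49 against 0.84 and 1.02. Ccl1, a ligand of Ccr8, was the strongest responder of the list in both experiments, at 4.79 and 5.05 against 3.95 and 4.02, with a difference of 0.93 (adjusted p = 0.000126; 0.80 with adjusted p = 0.065 when all 14 arrays were fitted together). Ccl17, a chemokine of mature dendritic cells, rose by 0.57 ± 0.06 in experiment 1 and 0.59 ± 0.02 in experiment 2 (difference -0.02, 95% interval -0.21 to 0.17). Ccl5 rose by 2.12 and 0.19; its levels with CpG were 15.00 and 15.23 against 14.75 and 14.78, and its levels without were 12.94 and 13.04 against 14.56 and 14.59.

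The largest fitted difference belonged to Nts, which encodes the peptide neurotensin. It stood at 10.63 and 11.01 with CpG and 6.76 and 6.77 without in experiment 1, and at 7.04 and 7.10 with CpG and 6.98 and 6.71 without in experiment 2. It exceeded the median of all values (7.52) only on the 2 CpG arrays of experiment 1 and passed the filter through them, so the size of its difference and its rank rest on levels near background elsewhere. The rise was 4.05 ± 0.25 in experiment 1, while the response of 0.23 ± 0.24 in experiment 2 was not called (SD, n = 2 each; difference 3.83, SE 0.14, adjusted p = 1.25e-07). Ptgs2, the inducible cyclo-oxygenase of prostaglandin synthesis, had the third largest difference, 3.15, and its distance lay mostly without stimulus: 8.84 and 8.59 in experiment 1 against 10.52 and 10.57 in experiment 2. Ch25h, which makes the antiviral oxysterol 25-hydroxycholesterol, rose by 2.91 and 3.23 against 0.39 and 0.32. Acod1, the enzyme that makes itaconate, rose by 2.04 and 2.32 against 0.48 and 0.59.

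Maturation genes rose in both experiments and began from different levels. Of 26 tested genes, 24 rose in experiment 1 and 23 in experiment 2 (against 17.7% and 8.65% of all genes). The list medians were 1.16 and 0.48 log2, and 20 differences were called positive (against 11.3% of all genes) and 1 negative (17.4%). Without stimulus, 18 of the 26 stood lower in experiment 1 (against 21.6% of all genes) and 3 stood higher. Cd86, a co-stimulatory ligand of CD28, stood at 12.50 and 12.74 with CpG and 11.70 and 11.65 without in experiment 1, against 13.18 and 13.11 with CpG and 12.95 and 12.95 without in experiment 2. Its unstimulated level in experiment 2 was thus above its stimulated level in experiment 1. Ccr7 reached nearly the same level with CpG, 13.89 and 14.10 against 13.75 and 13.97, from unstimulated levels of 12.29 and 12.41 against 13.23 and 13.32. Cd40 instead began alike, at 11.24 and 11.17 against 11.14 and 11.01, and rose by 2.67 ± 0.30 and 1.69 ± 0.13. Itgb8, an integrin chain that activates transforming growth factor beta, rose by 5.02 in both cultures of experiment 1 and by 2.61 and 2.73 in experiment 2. Lad1 gave 2.32 ± 0.01 and 2.17 ± 0.26, with no called difference (95% interval -0.11 to 0.41).

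The negative call in that list was Pdcd1lg2, the inhibitory ligand PD-L2, for which a rise was called in experiment 2 and no response in experiment 1: its responses were 0.02 and -0.01 in experiment 1 and 0.41 and 0.57 in experiment 2.

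**Figure D4:**
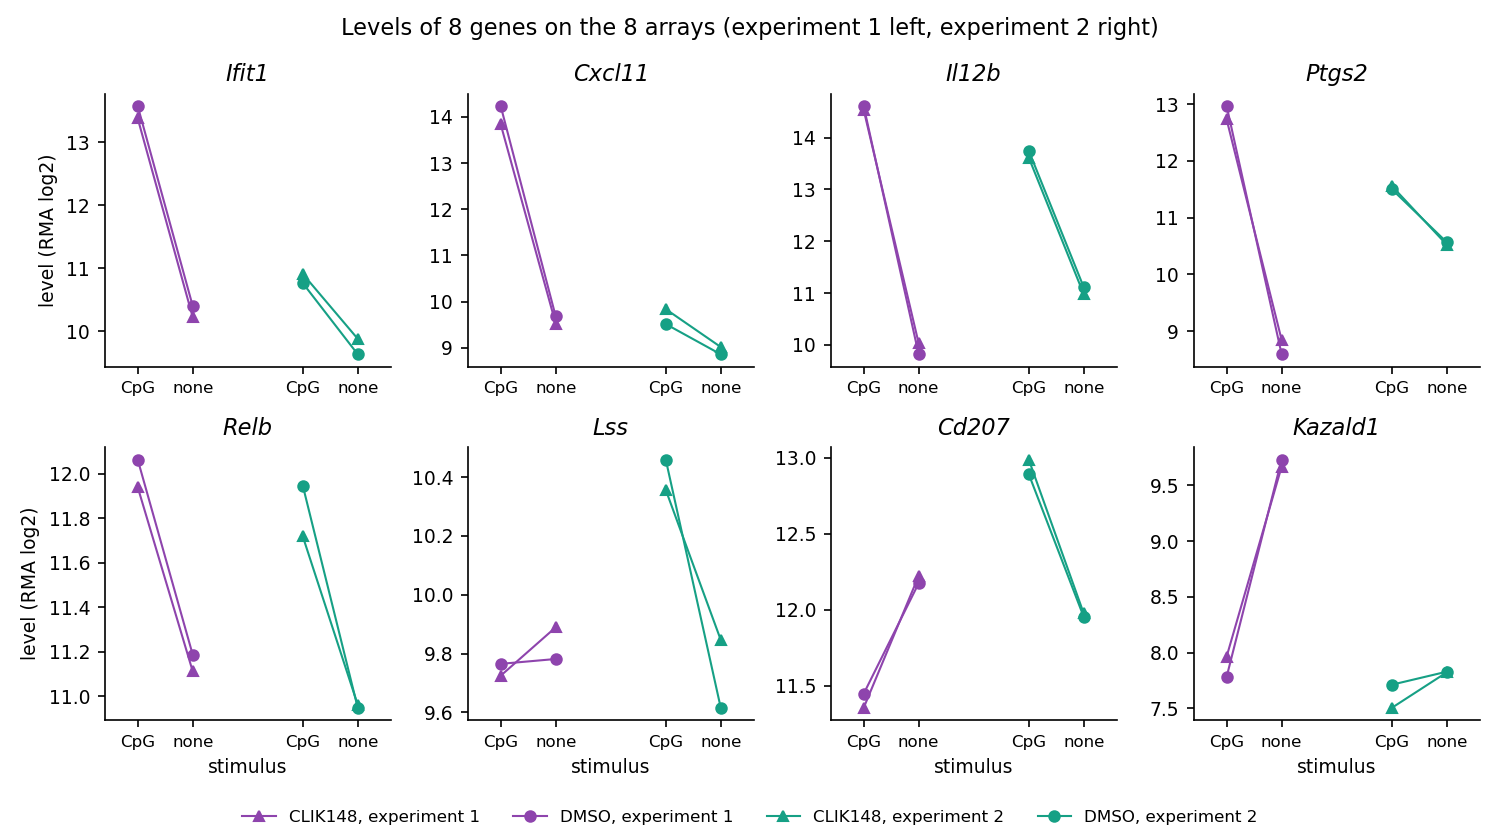
Array levels (vertical axes, RMA log2) of 8 genes with CpG and without stimulus in experiment 1 (left pair, purple) and experiment 2 (right pair, green); triangles are CLIK148 cultures, circles DMSO cultures, and lines join arrays of the same pre-treatment. Ifit1 and Cxcl11 differ mainly with CpG, Il12b and Ptgs2 on both sides, Relb little on either, and Kazald1 mainly without stimulus, while Lss and Cd207 rise in experiment 2.

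Antigen presentation genes split by class. In the class I list, 10 of 15 tested genes had a called positive difference (against 11.3% of all genes) and none a negative one. Nlrc5, the activator of class I genes, rose by 2.25 and 2.23 in experiment 1 and by 0.78 and 0.90 in experiment 2. Psmb10, an immunoproteasome subunit, rose by 1.22 and 1.28 in experiment 1 and gave -0.04 and -0.08 in experiment 2. The class I heavy chain H2-K1 rose by 0.23 ± 0.03 and 0.22 ± 0.04 and had no called difference (95% interval -0.18 to 0.20). In the class II list, 6 of 12 differences were called negative (against 17.4% of all genes) and 1 positive. Ciita, the activator of class II genes, fell by 0.61 and 0.87 in experiment 1 and gave 0.01 and 0.20 in experiment 2. The peptide-loading chains H2-DMa and H2-DMb2 fell in both experiments, by 1.31 and 0.71 and by 1.14 and 0.34. The abundant chains H2-Ab1, H2-Aa, H2-Eb1 and Cd74 had no called response in either.

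Cholesterol synthesis genes went against the general order. Of 16 tested genes, 4 rose and 4 fell in experiment 1, while 12 rose and none fell in experiment 2. Among all genes, 17.7% rose and 40.2% fell in experiment 1, and 8.65% rose and 18.6% fell in experiment 2. The list medians were -0.09 and 0.43 log2, and 13 differences were called negative (against 17.4% of all genes) and none positive (11.3%). Lss, lanosterol synthase, stood at 9.72 and 9.76 with CpG and 9.89 and 9.78 without in experiment 1, against 10.36 and 10.46 with CpG and 9.85 and 9.62 without in experiment 2. The experiments overlapped without stimulus and separated with CpG. Its responses were -0.09 ± 0.10 and 0.68 ± 0.24 (SD, n = 2 each; difference -0.77, 95% interval -1.03 to -0.51, adjusted p = 0.000934). Mvd, mevalonate diphosphate decarboxylase, fell by 0.27 and 0.31 in experiment 1 and rose by 0.47 and 0.56 in experiment 2. Dhcr7, which completes cholesterol, fell by 0.80 and 0.84 in experiment 1 and gave -0.04 and 0.24 in experiment 2. Idi1, an isomerase of the same pathway, rose by 0.80 and 1.17 against 0.90 and 0.93, with no called difference.

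Cell cycle genes fell in both experiments, with medians of -0.42 and -0.26 log2. A fall was called for 25 of 28 tested genes in experiment 1 and 17 in experiment 2 (against 40.2% and 18.6% of all genes). The difference was called negative for 8 and positive for 1 (against 17.4% and 11.3% of all genes). Those with a called negative difference included the mitotic genes Bub1b, Cdc20 and Birc5. Cdc20 fell by 0.63 and 0.69 in experiment 1 and gave 0.03 and 0.04 in experiment 2. The ribonucleotide reductase subunit Rrm2, needed to make DNA precursors, fell by 1.03 and 1.00 against 0.92 and 1.04, with no called difference. Under cyclic loess the list held 6 positive and 8 negative calls.

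In the other metabolic lists calls fell on both sides, beside 11.3% positive and 17.4% negative among all genes. The glycolysis and hypoxia list had 3 positive and 1 negative calls among 18 genes, the lysosome and cathepsin list 2 and 3 among 18, and the oxidative stress and arginine list 4 and 3 among 17.

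The largest negative differences belonged to genes of mixed roles. St6gal1, a sialyltransferase, fell by 2.53 and 2.60 in experiment 1 and by 0.47 and 0.31 in experiment 2, a difference of -2.18 (SE 0.09, adjusted p = 3.13e-07); a second bright probe set of this gene gave 0.05, so the value rests on 1 of 2 probe sets. Hepacam2 fell by 2.98 and 3.27 against 1.24 and 1.10. Cldn1, a tight-junction protein, fell by 1.77 and 1.90 in experiment 1 and gave -0.09 and 0.02 in experiment 2. Il6st, the shared receptor chain gp130, fell by 1.94 and 2.18 against 0.78 and 0.10. Ddr1, a collagen receptor, had a difference of -1.82 on the probe set used, and 2 of its 6 bright probe sets were called. Kazald1 began at 9.67 and 9.73 in experiment 1 and 7.82 and 7.83 in experiment 2 and fell by 1.71 and 1.95 in experiment 1, while its responses of -0.32 and -0.12 in experiment 2 were not called.

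Opposite responses were called for 125 genes, 88 higher in experiment 1 and lower in experiment 2, and 37 the reverse. The difference was called for all 125, which picking genes by 2 called responses of opposite sign makes nearly certain. Tlr3, the endosomal receptor for double-stranded RNA, stood at 10.03 and 10.14 with CpG and 8.46 and 8.55 without in experiment 1. In experiment 2 it stood at 8.21 and 8.11 with CpG and 8.58 and 8.52 without. The unstimulated cultures of the experiments overlapped, and those with CpG did not. The responses were 1.57 and 1.59 in experiment 1 and -0.37 and -0.41 in experiment 2 (difference 1.97, SE 0.08, adjusted p = 3.13e-07). Fcgr1, the high-affinity receptor for immunoglobulin G, rose by 1.43 and 1.54 in experiment 1 and fell by 0.35 and 0.40 in experiment 2. Iqgap2 gave 1.38 and 1.48 against -0.51 and -0.48, and the phosphodiesterase gene Pde7b gave 1.32 and 1.48 against -0.24 and -0.42. Cd207, which encodes the Langerhans cell lectin langerin, ran the other way: it fell by 0.87 and 0.73 in experiment 1 and rose by 1.01 and 0.94 in experiment 2.

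Some strong responses were nearly equal, with no called difference. Cyria rose by 1.11 and 1.34 in experiment 1 and by 1.11 and 1.33 in experiment 2 (difference 0.00, 95% interval -0.24 to 0.25). Zmynd15 rose by 0.97 and 1.13 against 0.96 and 1.14. Tm6sf1 fell by 1.10 and 1.26 against 1.16 and 1.14, and the transcription factor gene Hhex by 1.00 and 1.31 against 1.12 and 1.12. Nceh1, a cholesteryl ester hydrolase, fell by 1.04 and 1.22 against 1.33 and 0.98. These genes were named for their small difference, so their agreement is a description.

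Among genes with a called difference, 288 had the larger absolute response in experiment 2, beside 3207 in experiment 1. The genes given here were picked after their values were seen. Gpr155 gave 0.14 and 0.13 in experiment 1 and fell by 1.09 and 1.10 in experiment 2. Ffar2, a receptor for short-chain fatty acids, averaged -0.05 ± 0.07 in experiment 1 and fell by 0.99 ± 0.08 in experiment 2 (SD, n = 2 each). Fhod1, a regulator of actin filaments, gave 0.04 and -0.03 in experiment 1 and rose by 0.73 and 0.97 in experiment 2.

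The distance between the experiments was present on both sides of the subtraction and wider with CpG. With CpG, 6781 genes differed in level between the experiments (55.7%), 1927 higher (15.8%) and 4854 lower (39.9%) in experiment 1. Without stimulus 3825 did (31.4%), 1193 higher (9.8%) and 2632 lower (21.6%). Leaving out any one of the 4 unstimulated arrays put the second count between 2181 and 2261. Among the 1372 positive differences, the level with CpG was called higher in experiment 1 for 1083 and the level without stimulus called lower for 480, both for 217. Among the 2123 negative ones, the level with CpG was called lower for 1875 and the level without stimulus higher for 345. For the antiviral list the median gap was 1.51 log2 with CpG and 0.34 log2 without stimulus, both towards higher levels in experiment 1. For the maturation list it was 0.31 log2 with CpG and -0.36 log2 without, and for the cytokines 0.73 and -0.21 log2.

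**Figure D5:**
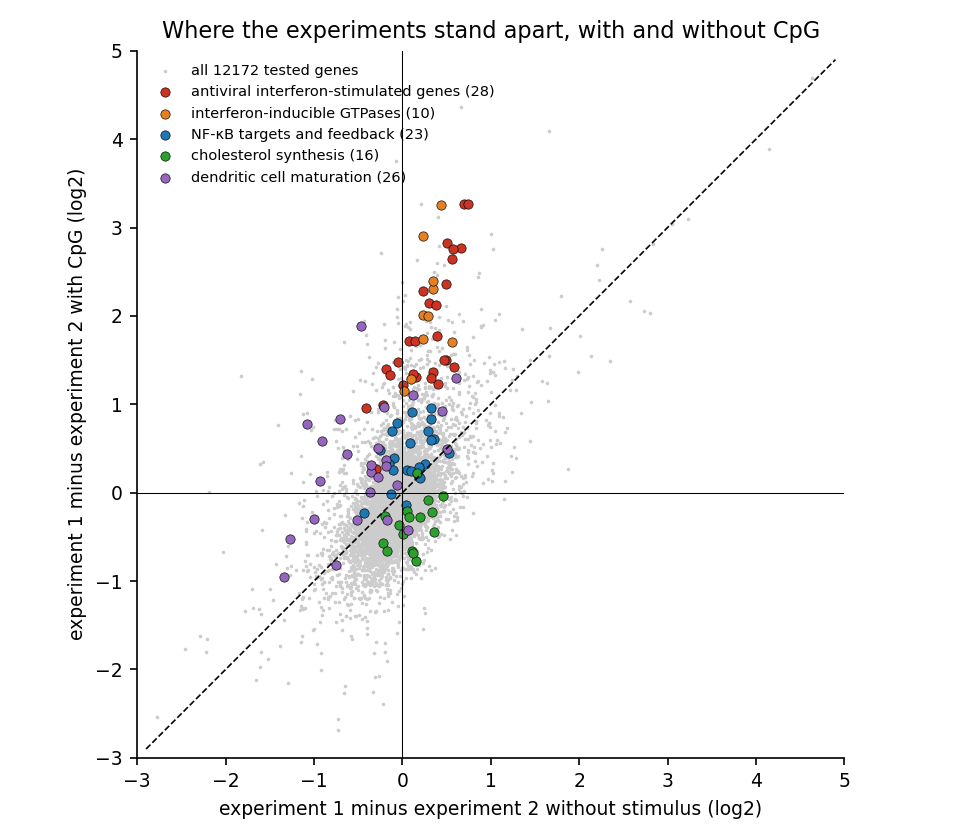
Level in experiment 1 minus level in experiment 2 without stimulus (horizontal axis) and with CpG (vertical axis) for 12172 genes, in log2; genes above the dashed line had a CpG response further up in experiment 1. The antiviral (red) and GTPase (orange) genes are spread upwards at small horizontal values, and maturation genes (purple) lie mostly left of 0.

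Unstimulated cultures of the experiments also differed. The genes in this paragraph that are on no list were picked after their values were seen. Rnase2a, an eosinophil-associated ribonuclease gene, averaged 12.75 without stimulus in experiment 1 and 8.11 in experiment 2, the matrix gene Fn1 averaged 13.12 and 8.97, and the monocyte chemokine receptor Ccr2 averaged 13.12 and 10.54. The eosinophil granule gene Prg2 averaged 12.45 and 10.25. Mrc1, the mannose receptor of macrophages, averaged 11.62 and 8.81. On the other side, the co-stimulator Icos averaged 8.31 in experiment 1 and 11.09 in experiment 2, and Lox, a collagen cross-linking enzyme, averaged 7.32 and 9.54. Of 12 tested macrophage markers, 8 stood higher (against 9.8% of all genes) and 2 lower (21.6%) in experiment 1 without stimulus, and their log2 levels summed to 144.5 to 145.7 in experiment 1 and 139.7 to 140.0 in experiment 2. Likewise without stimulus, the 13 dendritic cell markers, 5 higher and 6 lower, summed to 140.5 to 141.5 and 141.7 to 141.9. The 12 granulocyte markers, 5 higher and 2 lower, summed to 143.4 to 144.8 and 141.9 to 143.5. The lymphocyte and plasmacytoid list had 1 higher and 2 lower among 8, and the erythroid, mast and stromal list 1 higher and 2 lower among 6. The part of these differences in the size of the CpG response was not tested.

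Marker genes took part in the response as well, in both directions. The dendritic cell list had 1 positive and 7 negative calls among 13 genes and the macrophage list 3 and 4 among 12, beside 11.3% and 17.4% of all genes. On the positive side, Dpp4 of the dendritic cell list differed by 0.57. Of the macrophage list, Fcgr1 differed by 1.86, the largest difference of that list in size, and Cd14 and Mertk by 0.55 and 0.61. The complement genes C1qa and C1qc fell by 2.30 and 1.65 in experiment 1 and by 0.74 and 0.52 in experiment 2. The lectin genes Cd209a and Clec10a, both found on dendritic cells, fell by 2.11 and 2.00 in experiment 1 and by 0.88 and 1.15 in experiment 2. Cd209a ended at similar levels, 7.65 and 7.75 against 7.76 and 7.79 with CpG, and began at 9.75 and 9.86 against 8.65 and 8.66. Kdr, the receptor of vascular endothelial growth factor, rose by 2.78 and 3.02 against 1.49 and 1.47. Kdr belongs to the erythroid, mast and stromal list, which had 5 positive calls among 6; the others were the mast cell and basophil genes Cpa3, Fcer1a, Mcpt8 and Ms4a2, with differences of 0.70, 0.52, 0.40 and 0.33. The granulocyte and lymphocyte lists had 2 positive and 1 negative calls among 12 and 1 positive call among 8, beside 28.7% of all genes in either direction.

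The TNF response was compared in the same way, with CA074Me and DMSO cultures; it shares the unstimulated DMSO arrays with the CpG comparison, so values are set side by side. TNF changed 4158 genes in experiment 1 (34.2%, 10.4% higher) and 2237 in experiment 2 (18.4%, 6.74% higher). The difference between the experiments was called for 55 genes (0.452%), 28 positive and 27 negative, with a median standard error of 0.0958 log2 beside 0.091 for CpG. Single genes departed from these medians, so the counts do not rest on equal precision. The standard error for TNF beside CpG was 0.221 and 0.0992 for Il6, 0.290 and 0.0871 for Itgb8, and 0.109 and 0.138 for Nts. In experiment 2 the standard deviation over genes was 0.283 for the CA074Me response to TNF and 0.192 for the DMSO response. The standard deviation of the mean TNF response was 0.304 log2 in experiment 1 and 0.227 in experiment 2, a ratio of 1.34. The ratio was 1.15 for the CA074Me responses and 1.59 for the DMSO responses, which use the same unstimulated arrays as the CpG responses. Fitting all 14 arrays together called 243 TNF differences. In that fit the CpG difference minus the TNF difference was called for 1195 genes (9.82%), 694 positive (5.70%) and 501 negative (4.12%). Among the 10 largest negative CpG differences, Hepacam2, Cd207, Uck2 and Kazald1 also had called TNF differences, of -1.24, -1.15, -0.66 and -1.19. The others of these 10 had none. For all 10 the CpG minus TNF contrast was called negative. The lectin gene Cd209a had a called TNF difference of -1.01, and its CpG minus TNF contrast was not called.

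By list, the CpG minus TNF contrast was called positive for 28 of 28 antiviral genes and 10 of 10 GTPases (against 5.70% of all genes). It was positive for 8 of 13 interferon signalling factors, 12 of 22 cytokines and 11 of 23 chemokines. In the class I antigen presentation list it was positive for 6 of 15 genes, and in the class II list negative for 4 of 12 (against 4.12% of all genes). The contrast was called for 2 of 23 NF-κB genes, for 6 of 26 maturation genes and for none of 18 glycolysis genes. Among all genes 9.82% were called in either direction. The antiviral list had a median TNF response of 0.26 log2 in both experiments, and the maturation list 0.86 and 0.54 log2. The cholesterol list had TNF medians of 0.17 and 0.35 log2, and the contrast was called negative for 3 of its 16 genes and positive for none.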

How the data were processed

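The deposited values are log2 expression summaries that the authors made by RMA in R 3.0.1, per the submitters' processing notes, a method that removes background, equalises the arrays' distributions and pools probes. Arrays have no read depth, and their number limits the precision. RNA input was 100 ng, per the labels.

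Of 45101 probe sets, 34945 name 1 gene, 932 several and 9160 none, beside 64 controls. Each of 18193 genes was represented by its brightest probe set on average, and 12172 genes above the median of all values (7.52 log2) on at least 2 of the 14 arrays were tested with limma 3.58.1 (R 4.3.3). The model had a term for each pre-treatment in each experiment and 1 CpG term per experiment, with 2 residual degrees of freedom and a prior worth 7.94. Levels with and without CpG were compared in a model with 4 cells of experiment and stimulus and a pre-treatment term, with 3 residual degrees of freedom. P-values were adjusted by Benjamini-Hochberg over all tested genes, and called means an adjusted p under 0.05. Just inside this threshold lay Tnfaip8l2 (difference -0.268) and just outside it Dnmt3b (-0.251). The fit was checked on simulated data.

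The design text says that the experiments were independent, so replicate numbers pair arrays; differences between replicates correlated with r from 0.492 to 0.935 over 6 pairs of groups, and the block is part of the fit. The labels give a biological replicate number and do not say whether arrays of the same experiment came from separately grown cultures. P-values cover the spread between the arrays only.

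Genes were named by rule: the 10 largest positive and 10 largest negative called differences without overlap, 5 strong responses of the most equal size, 5 of opposite sign, the 3 largest differences and 2 largest mean responses of each of 20 gene lists, and Tlr9, Myd88, Ifnb1, Irf7, Il12b, Il6, Tnf, Ifit1 and Cxcl10. Other list members named as examples, and the class of differences of at least 1 log2 in the promoter counts, were chosen after their values were seen. The experiments, lists and rules were chosen with earlier results of these data known. Promoter windows were found for 9835 genes and not for 2337. The CpG minus TNF contrast and the grouping of genes by their experiment 2 response were added after seeing the data. No set test was run. Alternatives were no block, all 14 arrays, no filter, mean probe sets, cyclic loess, scaling to 500 steady genes, a trended robust prior and leaving out each array.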

Additional observations from a re-analysis of the deposited data

Results flagged for a closer look

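The CpG response differed between the experiments for 3495 genes by the test of the difference itself, and 125 genes had called responses of opposite sign. Among these, the largest differences were 1.97 log2 for Tlr3, 1.92 for Iqgap2, 1.86 for Fcgr1, -1.78 for Cd207 and 1.73 for Pde7b.

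Probe sets that name no gene or several genes were outside the comparisons above. Of 3034 bright ones, 180 (5.93%) had a called difference, 101 positive and 79 negative, without gene names.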

How the results depend on the processing

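Leaving out each array in turn gave 1938 to 3679 differences in the CpG response, 4971 to 7358 responding genes in experiment 1 and 2283 to 3288 in experiment 2. The gap with CpG held 5358 to 6654 genes and the gap without stimulus 2181 to 4406, the lowest counts coming without an unstimulated array (2213 without CLIK148 and 2181 without DMSO in experiment 1, 2203 and 2261 in experiment 2). The ratio of standard deviations ran from 1.94 to 2.15. Leaving out a CpG array or its unstimulated partner gave the same fit, since the block removes both. The lone response then left in an experiment was assumed to vary like those of the other. The TNF difference moved most: 16 genes were called without the replicate block and 243 in the fit of all 14 arrays with it, against 55. Without the block the CpG difference was called for 3578 genes. The filter, the probe set rule, cyclic loess, reference scaling and the robust prior gave 2914 to 3734. Cyclic loess moved the share of positive calls to 52.0% against 39.3% for the difference, 46.7% against 30.6% in experiment 1, 42.6% against 31.8% in experiment 2, 45.3% against 28.4% for the gap with CpG and 42.8% against 31.2% without stimulus. The gene lists were less steady: 62 list results under the alternatives were scored as the same as in the main fit and 18 as moved. No called difference of a named gene changed sign, and 81 of the 92 called kept their call in every fit. The exceptions were Ccl1, Hmgcs1, Slc2a1, Itgae, Ms4a2, Csf3r, Camp, Tap1, Hif1a, Ctsh and Hexa. The array count limits what can be seen: the median 95% interval of a difference was ±0.203 log2.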
